A study of Mus musculus with 6 samples.

Results

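Phosphate transport and vitamin D metabolism of the renal cortex were followed through 9 genes: the phosphate carriers Slc34a1, Slc34a3, Slc20a1 and Slc20a2, the scaffold Slc9a3r1, the co-receptor Kl, the vitamin D receptor Vdr and the vitamin D hydroxylases Cyp27b1 and Cyp24a1. All 15 probes that carry one of these names were taken from the 56605 probes of the array. Of these, 14 probes covering all 9 genes cleared the background on all 3 arrays of labelled db/m, of labelled db/db or of both, and were tested with every other probe that met this rule, 29886 in all. The remaining probe, A_55_P2115577 of Slc20a1, did not clear it on a single array.

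RNA of renal cortex from male mice aged 16 weeks was hybridised to one-colour Agilent arrays, of which 3 are labelled db/m and the other 3 db/db. Db/db mice are C57BLKS/J mice with a mutated leptin receptor, which become obese and diabetic, and db/m mice are their nondiabetic controls. The study's methods give the arrays as 3 treated and 3 untreated db/db mice, where treated mice received HQD (Huangqi decoction, a herbal preparation) by gavage over 8 weeks, and the dose given to these mice is not named. By the same methods, db/db mice without HQD and db/m mice received the vehicle, sodium carboxymethylcellulose, by gavage over those weeks. The labels and the methods thus disagree on what the groups are. The labels were kept, and differences are labelled db/m minus labelled db/db, on the log2 scale. The methods place tissue collection after an overnight fast in all mice. Each array is a separate labelled sample, and the methods count 3 mice in each group. The tissue label also differs from the treatment text, which speaks of glomeruli. Markers of tubules were well above background in every sample, with Lrp2 of the proximal tubule at 6.97 to 7.55 and Umod of the thick ascending limb at 7.69 to 8.22.

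Levels are log2 signals relative to the 75th percentile of their own array, so that a level of 0 lies at that percentile, and the level of a probe is not comparable with that of another probe. Between 51.5% and 59.1% of the probes of an array were well above background, the median intensity of an array was 75.9 to 113, and no probe was saturated. Array profiles correlated at 0.982 to 0.993 within a group and at 0.981 to 0.992 between groups. Replicate 3 of labelled db/db shared its slide with replicate 1 of labelled db/m, and no other slide mixed the groups. The signals of labelled db/m replicate 1 had been rounded to 3 significant digits before deposit, unlike those of the other arrays.

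The kidney sets plasma phosphate by reclaiming filtered phosphate in the proximal tubule through the sodium-phosphate cotransporters NaPi-IIa (Slc34a1) and NaPi-IIc (Slc34a3), which sit in the brush border. Parathyroid hormone and FGF23 take these carriers out of the membrane, FGF23 acting through an FGF receptor with Klotho (Kl) as co-receptor. The proximal tubule also holds 1α-hydroxylase (Cyp27b1), which makes the active hormone calcitriol, and 24-hydroxylase (Cyp24a1), which degrades it, and calcitriol acts through the vitamin D receptor (Vdr).

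The 3 probe sequences that follow, given 5′ to 3′ as the scanner files hold them, are those of the carrier and scaffold probes on which the values below turn, and each lies in a transcript of its gene on the mm9 build. The Slc34a1 probe begins at base 1850 of NM_011392 (chr13:55514826-55514885, plus strand), the Slc34a3 probe at base 1236 of NM_080854 (chr2:25086307-25086366, minus strand) and the Slc9a3r1 probe at base 1140 of NM_012030 (chr11:115041711-115041770, plus strand).
Slc34a1 A_55_P1991891: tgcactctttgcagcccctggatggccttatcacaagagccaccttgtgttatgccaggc
Slc34a3 A_66_P104648: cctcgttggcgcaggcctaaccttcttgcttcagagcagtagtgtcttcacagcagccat
Slc9a3r1 A_55_P2740779: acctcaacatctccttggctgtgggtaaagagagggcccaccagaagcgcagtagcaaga

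None of the 14 probes passed a Benjamini-Hochberg adjusted p under 0.05 in limma, where the share over all probes tested was 0%. At an unadjusted p under 0.05, 3 probes were lower in labelled db/m (1 of Slc34a1 and both of Slc9a3r1) against 11.1% of all probes, and 0 were higher against 6.62%. No probe separated the groups without overlap, whereas 16.8% of all probes did so on the lower side and 7.42% on the higher side. An exact permutation test of 3 arrays against 3 cannot go below p = 0.1. The differences of the 14 probes had a median of -0.36, and 13 of them were below 0. Over all probes tested the median was -0.04 with 54.7% below 0, and over the brightest 25%, in which 10 of the 14 probes lay, it was -0.15 with 77.8% below 0. The number below 0 was 10 under quantile normalization and 14 under median centring, a setting that shifted all differences by -0.18 at the median. It was 8 without labelled db/m replicate 1, where the median was -0.12. As tissue was measured in bulk, fewer cells of a type and less RNA per cell cannot be told apart.

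**Figure D1:**
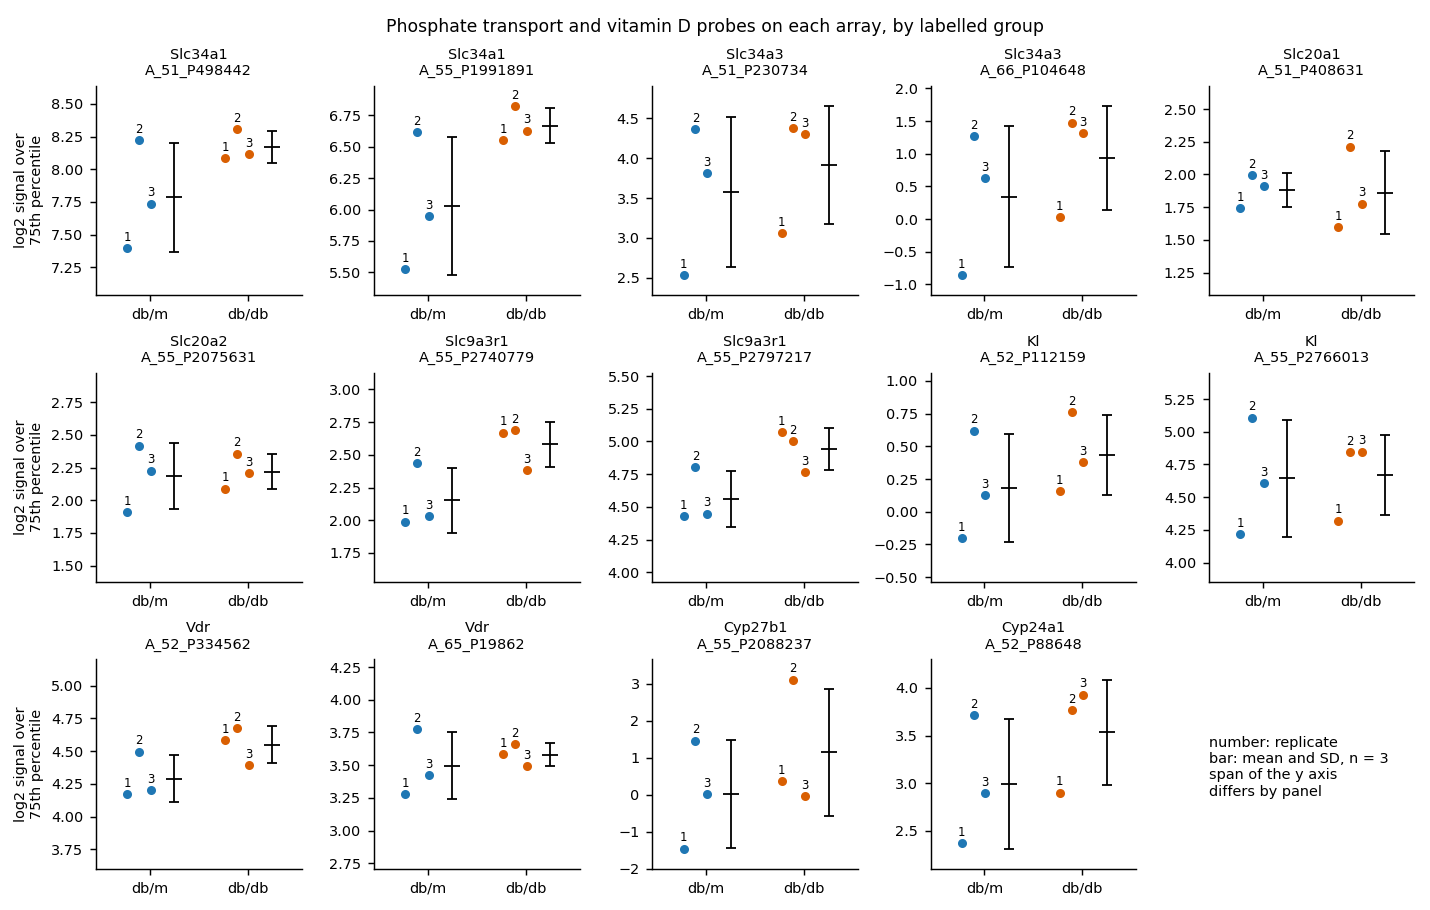
Level of each of the 14 probes (log2 signal over the 75th percentile of the array) on the 3 arrays labelled db/m (blue) and the 3 labelled db/db (orange), with replicate numbers beside the points and the mean and SD of each group. Labelled db/m replicate 1 is the lowest array in 13 of 14 panels, the groups overlap in all, and the widest spread is that of Cyp27b1.

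Slc34a1, the main phosphate carrier of the proximal tubule, was read by 2 probes of NM_011392. Probe A_55_P1991891 was at 5.53, 6.62 and 5.95 in labelled db/m and at 6.55, 6.83 and 6.63 in labelled db/db. Labelled db/m replicates 1 and 3 lay below all labelled db/db arrays, and labelled db/m replicate 2 lay within their range. The difference was -0.64 (SE 0.27, 95% interval -1.28 to -0.0031), a signal 35.8% lower, at an unadjusted p of 0.0492 (limma adjusted p = 0.282). Without labelled db/m replicate 1 it was -0.39, at an unadjusted p of 0.133. Probe A_51_P498442, which starts at base 2225 of the same transcript, was at 7.40, 8.22 and 7.74 in labelled db/m and at 8.09, 8.31 and 8.12 in labelled db/db. Its arrays had the same arrangement, and its difference was -0.38 (SE 0.21, limma adjusted p = 0.364). On the slide that held both groups the differences were -1.10 and -0.72.

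Slc34a3, the second carrier of the brush border, varied more within groups. Probe A_51_P230734 was at 2.54, 4.37 and 3.81 in labelled db/m and at 3.06, 4.37 and 4.30 in labelled db/db. Probe A_66_P104648 was at -0.85, 1.27 and 0.62 in labelled db/m and at 0.03, 1.48 and 1.31 in labelled db/db. Replicate 1 was the lowest array of its group for both probes, and the groups overlapped over most of their range. The differences were -0.34 (SE 0.54, limma adjusted p = 0.735) and -0.59 (SE 0.60, limma adjusted p = 0.592). Without labelled db/m replicate 1 both turned to slightly above 0, at 0.18 and 0.0068. On the slide that held both groups they were -1.77 and -2.16, from labelled db/m replicate 1 against labelled db/db replicate 3 alone. A fit with slide as a fixed block takes its difference from that pair, so no p is given for it. The within-group SD was 0.85 and 0.95, larger than that of 98.5% and 99.1% of all probes tested, for which the median was 0.19.

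Slc20a1 and Slc20a2 encode the carriers PiT-1 and PiT-2, which most cell types express. Slc20a1 (A_51_P408631) was at 1.74, 2.0 and 1.91 in labelled db/m and at 1.59, 2.21 and 1.78 in labelled db/db. The labelled db/m arrays all lay inside the range of labelled db/db, and the difference was 0.02 (95% interval -0.40 to 0.45, limma adjusted p = 0.954), or -0.16 under median centring. Slc20a2 (A_55_P2075631) was at 1.91, 2.42 and 2.23 in labelled db/m and at 2.09, 2.36 and 2.21 in labelled db/db. Here the labelled db/db arrays lay inside the range of labelled db/m, with a difference of -0.03 (95% interval -0.41 to 0.35, limma adjusted p = 0.921), or 0.05 under quantile normalization.

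Slc9a3r1 encodes NHERF1, a scaffold that holds NaPi-IIa at the brush border. Probe A_55_P2740779 was at 1.99, 2.44 and 2.03 in labelled db/m and at 2.67, 2.69 and 2.38 in labelled db/db. Probe A_55_P2797217, which starts at base 1762 of the same transcript, was at 4.43, 4.81 and 4.45 in labelled db/m and at 5.07, 5.0 and 4.76 in labelled db/db. In both, labelled db/m replicates 1 and 3 lay below every labelled db/db array, and labelled db/m replicate 2 lay just above labelled db/db replicate 3. The differences were -0.43 (SE 0.16, limma adjusted p = 0.266) and -0.38 (SE 0.15, limma adjusted p = 0.272), or signals 25.7% and 23.4% lower, at unadjusted p of 0.0362 and 0.0401. They stayed below 0 under every alternative tried, from -0.61 to -0.33 and from -0.57 to -0.21. On the slide with both groups they were -0.39 and -0.34, from 1 array against 1. Without labelled db/m replicate 1 they were -0.35 and -0.32, at unadjusted p of 0.108 and 0.117. Of the 9 genes, Slc9a3r1 had the difference with the smallest unadjusted p. Both of its probes were at an unadjusted p under 0.05 in 9 of the 18 fits, none of them the fit with slide as a fixed block.

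Kl encodes Klotho, which the distal convoluted tubule expresses most strongly in the kidney. Probe A_55_P2766013 (NM_013823) was at 4.22, 5.11 and 4.61 in labelled db/m and at 4.32, 4.85 and 4.85 in labelled db/db. Probe A_52_P112159 (AB010088) was at -0.20, 0.62 and 0.12 in labelled db/m and at 0.16, 0.76 and 0.38 in labelled db/db. Replicate 1 was again the lowest array of either group in both. The differences were -0.03 (95% interval -0.64 to 0.58, limma adjusted p = 0.959), which turned to 0.13 under quantile normalization, and -0.25 (95% interval -0.84 to 0.33, limma adjusted p = 0.581). They were -0.63 and -0.58 on the slide that held both groups.

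Vdr showed little spread. Probe A_52_P334562 was at 4.17, 4.50 and 4.20 in labelled db/m and at 4.58, 4.67 and 4.40 in labelled db/db. Labelled db/m replicate 2 alone overlapped the labelled db/db arrays, and the difference was -0.26 (SE 0.14, limma adjusted p = 0.348). Probe A_65_P19862 was at 3.28, 3.78 and 3.42 in labelled db/m and at 3.59, 3.66 and 3.49 in labelled db/db, with a difference of -0.09 (limma adjusted p = 0.768) that turned to 0.03 under quantile normalization. The within-group SD was 0.16 and 0.19, near the median of all probes.

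Cyp27b1 was the most variable of the 9 genes. Probe A_55_P2088237 was at -1.46, 1.46 and 0.02 in labelled db/m and at 0.35, 3.10 and -0.05 in labelled db/db. Replicate 2 was the highest array of each group, and the highest and lowest array differed 23.6-fold. Only 13 of the 29886 probes tested had a wider range over the arrays. The difference of -1.13 (SE 1.0, limma adjusted p = 0.538) had a 95% interval from -3.50 to 1.24, so that its direction was not resolved by these arrays. Leaving out replicate 1 or 2 of labelled db/m gave -0.40 or -1.86, and leaving out replicate 2 or 3 of labelled db/db gave -0.15 or -1.72, so that several single arrays each moved it by more than 1.5 times.

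Cyp24a1, which calcitriol induces, was at 2.37, 3.71 and 2.90 in labelled db/m and at 2.90, 3.77 and 3.93 in labelled db/db (A_52_P88648). Replicate 1 was the lowest array in each group, and its arrays spanned 2.95-fold. The difference was -0.54 (SE 0.40, limma adjusted p = 0.467), and it was -1.56 on the slide that held both groups, from 1 array against 1. Cyp24a1 and Cyp27b1 act on the same hormone in opposite directions, and the arrays did not rank alike for them: labelled db/db replicate 3 was the highest array for Cyp24a1 and the second lowest for Cyp27b1.

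**Figure D2:**
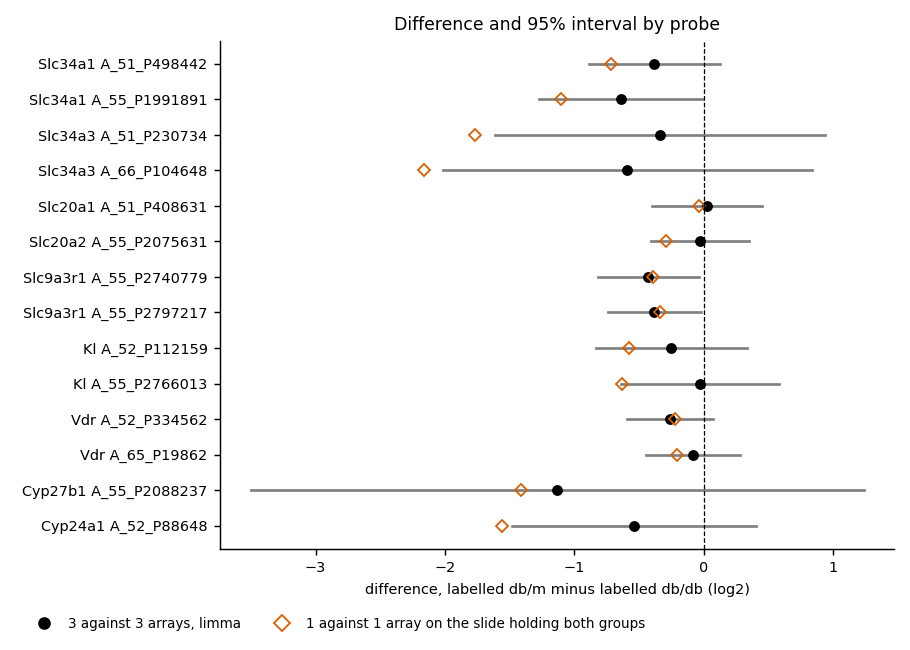
Difference of each probe (log2, labelled db/m minus labelled db/db) from 3 against 3 arrays with its 95% interval (black points, grey lines), and from the single pair of arrays on the slide that held both groups (open diamonds). In all, 13 points lie below 0 (10 under quantile normalization), the intervals of 1 Slc34a1 probe and both Slc9a3r1 probes exclude 0 before adjustment, and the interval of Cyp27b1 runs from -3.50 to 1.24.

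The 14 probes shared an order of arrays. In labelled db/m, replicate 1 was lowest, replicate 3 lay between and replicate 2 was highest for all 14, an order found in 31.4% of all probes tested and 44.8% of the brightest 25%. Labelled db/db replicate 2 was the highest of all 6 arrays for 9 of 14, against 29.9% of all probes and 51.7% of the brightest 25%. Labelled db/m replicate 1 was the lowest of all 6 arrays for 13 of the 14 probes, against 22.7% of all probes and 39.5% of the brightest 25%. The median deviation of the 14 probes from their own means was -0.48 on that array, beside 0.26 and -0.20 on the other labelled db/m arrays and -0.13, 0.33 and 0.04 on those labelled db/db.

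Cell type markers moved with these arrays. On labelled db/m replicate 1 the median deviation was -0.32 for 10 proximal tubule markers, -0.47 for 4 podocyte markers and -0.54 for 6 markers of the distal convoluted and connecting tubule, and it was 0.43 for 4 markers of the thick ascending limb. Slc5a2, the glucose carrier SGLT2 of the early proximal tubule, was at 5.58 on this array and at 6.54 to 7.21 on the others. Markers of a type did not all move alike. The proximal tubule markers Aqp1 and Slc7a13 were highest on this array, at 7.72 and 4.19, beside 7.17 to 7.33 and 2.56 to 3.04 on the others. Slc12a1, the NKCC2 carrier of the thick ascending limb, was at 6.78 there and at 4.81 to 5.97 elsewhere. Cldn16, of the same limb, was at -0.43 there, below labelled db/db replicates 1 and 2. Between the groups, 8 of 10 proximal tubule markers were lower in labelled db/m (6 under quantile normalization). Of the 8, 2 were at an unadjusted p under 0.05, a threshold at which 11.1% of all probes were lower and 6.62% higher. Below 0 were 54.7% of all probes and 77.8% of the brightest probes, the set named above. These markers are bright, with group means of 2.78 or more, and 8 of 10 is near the share of the brightest probes. The summed level of the proximal tubule markers was 9.34 to 9.73 in labelled db/m and 9.64 to 9.84 in labelled db/db. All 4 podocyte markers were lower (1 of 4 without labelled db/m replicate 1) and all 5 immune cell markers tested were higher (4 of 5 under median centring), 0 and 2 of them at an unadjusted p under 0.05. Summed levels were 2.75 to 3.55 against 3.10 to 3.45 for podocytes and 3.89 to 4.42 against 3.34 to 3.88 for immune cells. Of 6 distal convoluted and connecting tubule markers, 5 were lower (4 under quantile normalization and 3 without labelled db/m replicate 1), with Slc12a3, the thiazide-sensitive carrier, at -0.92 (limma adjusted p = 0.241), and their summed level was 4.85 to 5.87 in labelled db/m and 5.25 to 5.79 in labelled db/db. All 3 blood markers were lower, none at an unadjusted p under 0.05. Of the 3 adipose and 4 urothelial markers, 1 and 2 were tested and higher. Fabp4 of adipose tissue differed by 0.62 (limma adjusted p = 0.271), without overlap of the groups. The urothelial Upk1a and Krt5 differed by 0.72 and 1.52 (limma adjusted p = 0.670 and 0.255), with overlap. Fabp4 and Krt5 were at an unadjusted p under 0.05. Adipoq, Plin1, Upk2 and Upk3a were not well above background on all 3 arrays of either group. The part of cell type markers in the differences of the 9 genes was not tested.

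**Figure D3:**
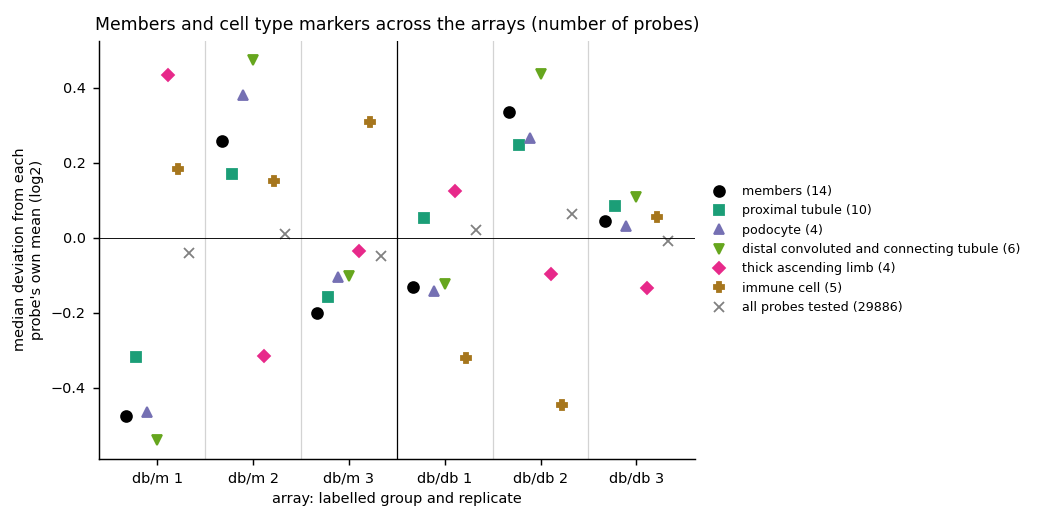
Median deviation from each probe's own mean over the 6 arrays (log2), by array, for the 14 probes of the 9 genes, for markers of 5 cell types and for all probes tested. On labelled db/m replicate 1 the 9 genes, proximal tubule, podocyte and distal tubule markers lie below 0 and thick ascending limb markers above it, and on both replicates 2 the 9 genes and those first 3 marker sets lie above 0.

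The profiles nearest to 3 of the genes were sought among 16987 genes by the root-mean-square difference of profiles centred on their own means over the 6 arrays. For Slc34a1 they were Gm8709 (0.03), Fam134b (0.03) and Pth1r (0.03), beside a deviation of Slc34a1 from its own mean of 0.31. Pth1r, the receptor of parathyroid hormone, was at 5.18, 5.98 and 5.53 in labelled db/m and at 5.85, 6.16 and 5.92 in labelled db/db, a difference of -0.42 (limma adjusted p = 0.337). For Kl they were Ngfr (0.05), Slc16a4 (0.06) and Pvalb (0.06), the last a marker of the distal convoluted tubule, against 0.31 for Kl itself. For Cyp27b1 the nearest were 1810010D01Rik (0.74), Slc16a14 (0.81) and Tchhl1 (0.82), beside a deviation of Cyp27b1 from its own mean of 1.42. Profiles were not scaled, so these distances grow with the range of a gene and cannot be compared between Cyp27b1 and the other genes.

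Of 52 further genes of phosphate, vitamin D and calcium handling, 46 had a tested probe, and the brightest one was taken for each. The difference was below 0 for 33 and above 0 for 13, with a median of -0.15, and it was below 0 for 28 under quantile normalization and 40 under median centring. Below 0 were also 54.7% of all probes tested and 77.8% of the brightest 25%. None passed an adjusted p under 0.05 in limma. At an unadjusted p under 0.05, 6 of 46 were lower, beside 11.1% of all probes, and 1 was higher, beside 6.62%. Of those lower, Slc17a4 alone did not clear the background on every array.

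Among 7 tested phosphate carriers and export genes, 3 were lower at that threshold, beside 11.1% of all probes. Slc17a1, named as a sodium-phosphate transporter of the proximal tubule and known also to move urate, was at 3.74, 3.69 and 3.63 in labelled db/m and at 4.22, 4.22 and 3.96 in labelled db/db. The groups did not overlap, and the difference was -0.45 (SE 0.12, unadjusted p of 0.00706, limma adjusted p = 0.241), though -0.23 on the slide that held both groups. Its relative Slc17a4, a dim probe, differed by -0.73 (SE 0.21, limma adjusted p = 0.241) and Enpp1, which makes pyrophosphate, by -0.48 (SE 0.15, limma adjusted p = 0.241), each without overlap. On that slide these were -0.34 and -0.06. Slc17a4, which is among the 3, did not clear the background on every array and was tested through a single group. Its difference and the lack of overlap therefore rest in part on signals near background. Xpr1, the phosphate exporter, differed by -0.20 (limma adjusted p = 0.580).

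All 7 scaffolds and partners of the apical carriers had differences below 0 (4 of 7 under quantile normalization), beside 77.8% of the brightest 25% of probes, and 1 of them was at an unadjusted p under 0.05, beside 11.1% of all probes. That was Ezr, which encodes ezrin and links NHERF1 to actin, at 5.09, 5.29 and 5.08 in labelled db/m and at 5.53, 5.64 and 5.38 in labelled db/db. The groups were separate by a narrow gap, and the difference was -0.36 (SE 0.12, unadjusted p of 0.0226, limma adjusted p = 0.245), with -0.18 and an unadjusted p of 0.0882 under quantile normalization. Pdzd3 differed by -0.33 (limma adjusted p = 0.286) and Pdzk1 by -0.28 (limma adjusted p = 0.470).

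Among 12 genes of vitamin D uptake, activation and receptor partners, 1 was lower at the same threshold, beside 11.1% of all probes. Cyp27a1, a mitochondrial sterol hydroxylase that can also act on vitamin D at its 25 position, was at -1.40, -0.57 and -0.91 in labelled db/m and at -0.25, 0.12 and -0.23 in labelled db/db. Every labelled db/m array lay below every labelled db/db array, as for 16.8% of all probes. The difference was -0.84 (SE 0.23, unadjusted p of 0.0080, limma adjusted p = 0.241), and -1.17 on the slide with both groups. Leaving aside the fit with slide as a fixed block, its unadjusted p was under 0.05 in every fit. The largest was 0.0358, under the equal-variance test. Lrp2, the receptor megalin that takes up vitamin D with its binding protein, differed by -0.28 (limma adjusted p = 0.327). Of 9 calcium transport and sensing genes none passed, and Calb1 and S100g differed by -0.14 and -0.27 (limma adjusted p = 0.879 and 0.591).

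**Figure D4:**
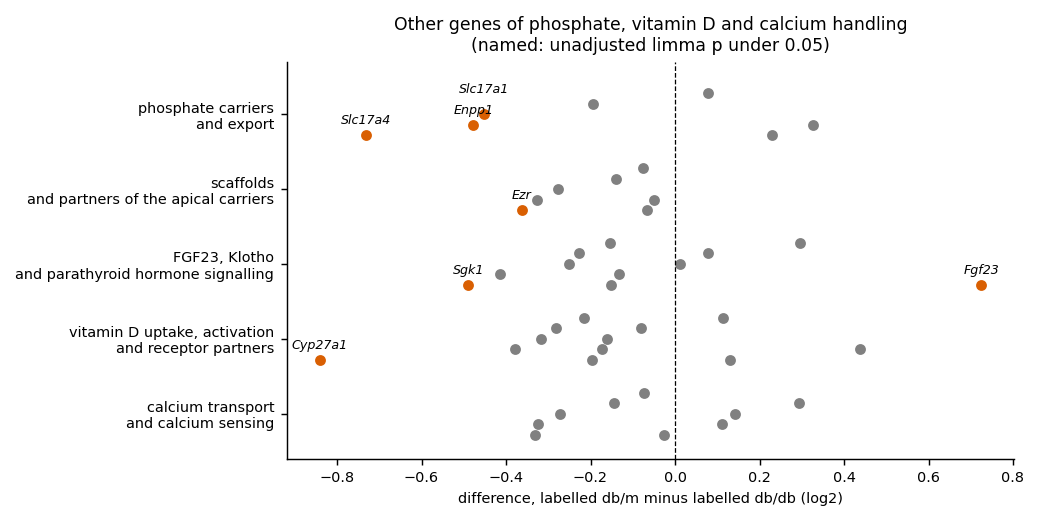
Difference, labelled db/m minus labelled db/db (log2), of the brightest tested probe of 46 further genes in 5 lists. Named orange points have an unadjusted limma p under 0.05, 6 of them below 0 and Fgf23 above it, and none passes adjustment.

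Of 11 genes of FGF23, Klotho and parathyroid hormone signalling, 1 was lower at an unadjusted p under 0.05, beside 11.1% of all probes, and 1 higher, beside 6.62%. The lower one was Sgk1, a kinase downstream of FGF23, and the higher one was Fgf23. Sgk1 had a difference of -0.49 (SE 0.19, unadjusted p of 0.0399, limma adjusted p = 0.271), with an unadjusted p of 0.119 under quantile normalization. The Fgf23 probe A_55_P2169514, for the hormone made mainly by bone, was at 4.23, 3.59 and 3.72 in labelled db/m and at 3.13, 3.02 and 3.22 in labelled db/db. The groups did not overlap, beside 7.42% of all probes on the higher side. The difference was 0.72 (SE 0.18, unadjusted p of 0.0056, limma adjusted p = 0.241), or 1.01 on the slide that held both groups, with the highest value on labelled db/m replicate 1. The probe (chr6:127030758-127030817 on mm9) opens with a dinucleotide repeat of 20 bases, shown in capitals in its first 30 bases because the differences of other probes with that repeat had the same sign.
Fgf23 A_55_P2169514: cCACACACACACACACACACAtacatgtaa
All 33 other tested probes with at least 9 CA units in a row differed above 0, with a median of 0.60. At an unadjusted p under 0.05, 24 of them were higher, beside 6.62% of all probes. Of 53 probes with at least 9 TG units, the reverse complement, 52 differed below 0, with a median of -0.52. Only 2 of the 53 were lower at that threshold, beside 11.1% of all probes. Under median centring 32 of 33 differed above 0 and 53 of 53 below 0. Without labelled db/m replicate 1 the medians were 0.39 and -0.29. The repeat was looked at after the value of Fgf23 had been seen. How far the signal of this probe comes from Fgf23 transcripts was not tested.

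**Figure D5:**
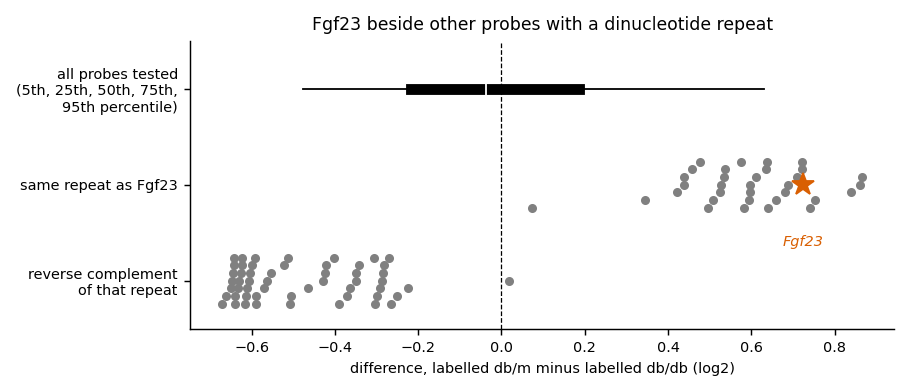
Difference, labelled db/m minus labelled db/db (log2), of 33 other probes with the dinucleotide repeat of the Fgf23 probe and of 53 with its reverse complement, beside the percentiles of all probes tested. The Fgf23 value of 0.72 (star) lies among those of the first set, whose range is 0.07 to 0.87, while the second set spans -0.67 to 0.02.

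RefSeq promoter windows (250 bases before to 50 after a start site, GRCm38.p6) were on hand for 7 of the 9 genes, in 8 windows. Slc20a2 and Cyp24a1 had no entry. The nuclear receptor hexamers AGGTCA or AGTTCA, of which vitamin D response elements are built, were in 5 of the 8 windows on either strand, against 27.7% of 32851 windows. The windows of Kl, Cyp27b1 and Slc9a3r1 held neither hexamer. The hexamer GTTAAT, part of the sites of the tubular factor HNF1, was in the Slc34a1 window only, at -61 and -89 from the start, against 7.1% of windows. The 250 bases before the Slc34a1 start site (chr13:55399398-55399647, plus strand) are shown with the AGTTCA at -17 in capitals, as Slc34a1 is the only one of these genes to hold both kinds of hexamer. A match is a description of sequence and not a bound site.
Slc34a1 promoter: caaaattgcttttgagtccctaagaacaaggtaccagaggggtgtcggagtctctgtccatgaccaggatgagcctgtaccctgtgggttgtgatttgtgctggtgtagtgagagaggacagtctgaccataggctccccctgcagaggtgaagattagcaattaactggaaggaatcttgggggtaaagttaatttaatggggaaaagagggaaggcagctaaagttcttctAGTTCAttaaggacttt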

How the data were processed

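The authors deposited a scanner file for each array that holds the processed Cy3 intensity of its spots, from Agilent Feature Extraction 10.7.1.1 (per the labels), background-subtracted and not normalized between arrays. A table of log2 values deposited with them correlated with the log2 intensities at 0.998 to 1.000 per array and served as an alternative. Probe names and mm9 coordinates came from the scanner files, with 71 names of labelled db/m replicate 1 set aside for those of the other files. In R 4.3.3, control spots and outlier flags were left out, spots of a probe averaged and the 75th percentile of each array subtracted from its log2 values. Probes well above background in each array of a group were tested with lmFit and eBayes of limma 3.58.1 and Benjamini-Hochberg adjustment over 29886 probes. Groups follow the labels. The number of arrays, 3 a group, limits the precision. Every probe of the 9 genes is named, and of the further lists the genes at an unadjusted p under 0.05 with at most 3 others per list. The members and lists were chosen with earlier results of these data known. Alternatives changed the normalization, background correction, filter, test, slide or replicate block and arrays included. One marker of a cell type list is not reported here and was left out of that list's values.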

Additional observations from a re-analysis of the deposited data

How the results depend on the processing

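No probe of the 9 genes passed an adjusted p under 0.05 under any alternative, and none was higher at an unadjusted p under 0.05. The 3 lower probes became 5 under median centring and 0 under quantile normalization, with the deposited value table, without a filter on dim probes and under the equal-variance test. With slide as a random block they were the 2 of Slc9a3r1. With slide as a fixed block each difference is that of the single pair of arrays on the slide that held both groups, so its calls are not counted. Leaving out 1 array gave 0 to 6, namely 6 without replicate 2 of labelled db/m, 2 without replicate 3 of labelled db/db and 0 without any of the others. The median difference was -0.61 with slide as a fixed block and within that slide, and -0.54 to -0.12 with 1 array left out. Of the further 46 genes, 11 were lower under median centring and 4 under quantile normalization. The counts over all 29886 probes moved as well, with 5832 lower under median centring and 3148 under quantile normalization. They were 3136 with the deposited value table and 3406 under the equal-variance test. With 1 array left out, 1241 to 4171 of all probes were lower and 1030 to 3208 higher, and the 4171 came without replicate 2 of labelled db/m. With 1 array left out, 3 to 13 were lower and 1 to 3 higher; the 13 came without replicate 2 of labelled db/m, 3 lower came without replicate 3 of that group or replicates 1 or 2 of labelled db/db, and 3 higher came without replicate 2 of labelled db/m or replicate 3 of labelled db/db.

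Signs turned for small differences. Kl A_55_P2766013 was at 0.13 with the deposited table and under quantile normalization, 0.018 with normexp, 0.0036 with slide as a random block, and -0.26 to 0.19 with 1 array left out. Slc20a1 was at -0.16 under median centring, -0.037 with slide as a fixed block and within that slide, and -0.11 to 0.20 with 1 array left out. Slc20a2 was at 0.051 with the deposited table, 0.053 under quantile normalization and -0.15 to 0.10 with 1 array left out. Vdr A_65_P19862 was at 0.031 and 0.034 in these and -0.23 to 0.021 with 1 array left out. Slc34a3 was at -0.77 to 0.18 and -1.05 to 0.0068 with 1 array left out. The cause was not tested.

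With the replicate number as a block, 4 probes of the 9 genes were lower at an unadjusted p under 0.05, with Slc34a3 A_66_P104648 added to the other 3 at 0.0196. Of all 29886 probes, 4235 were lower at that threshold in the same fit. In that fit Cyp27b1 was at an unadjusted p of 0.0511 and Slc34a3 A_51_P230734 at 0.0745. Deviations of same-numbered arrays correlated at 0.36, 0.15 and 0.05. Each labelled db/m array, and labelled db/db replicates 1 and 2, correlated best with the array of the same number in the other group. Labelled db/db replicate 3 correlated best with labelled db/m replicate 2. The labels name no pairing, and the numbers were not taken as pairs. Over all probes, 90 passed adjustment without replicate 2 of labelled db/m and 120 without replicate 3 of labelled db/db.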
